A study of Mus musculus with 6 samples.

Results

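Intraflagellar transport, Bardet-Biedl syndrome (BBS) and cystic kidney disease genes were followed in kidney cells of newborn mice, sorted as Hoxb7+ (ureteric bud lineage). The members were chosen by name: every mouse gene called Ift, Bbs or Nphp plus a number, together with Pkd1, Pkd2, Pkhd1, Bicc1, Cys1, Invs, Glis2, Glis3, Kif3a, Nek8, Arl13b and Tmem67. This gave 37 genes, read by 49 probes, of 20887 named genes on the array. All 37 genes and all 49 probes passed the filter on dim probes, which kept 14586 genes and 29003 of 55681 probes.

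MUT pools 1 to 3 carried the floxed alleles Bdkrb2f/f, the gene of the bradykinin B2 receptor, and WT pools 1 to 3 carried Bdkrb2+/+. Both groups also carried Hoxb7cre+, a Cre driven in the ureteric bud lineage, and the reporter R26RtdTomato, on C57BL/6. Kidneys were salt-stressed and taken on postnatal day 1, and GFP+/Tom+ cells were sorted, so deletion is limited to the Hoxb7 lineage and other renal cells keep the gene. Each sample is a pool, and the sources used here do not say how many mice a pool holds. On each two-colour array a pool in Cy5 met a Cy3 reference made from WT pool 1, and WT pool 1 itself was therefore hybridised against its own RNA.

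An array had 27022 to 31314 probes well above background in its Cy5 channel. The log2 ratios of tested probes had an SD of 0.50 to 0.65 on the MUT arrays, against 0.15 to 0.25 on the WT arrays. The 1 probe of Bdkrb2 was well above background on 0 of 6 arrays in either channel and gives no check of the genotype. MUT pool 1 lay at least 1 log2 unit below both other MUT pools at 941 probes, against 0 for MUT pool 2, 18 for MUT pool 3 and at most 31 for a WT pool. All tested markers of collecting duct principal cells (11) and intercalated cells (10) were well above background on every array, and so were those of the renal stroma (10) and of nephron progenitors and the early nephron (9). The same held for the ureteric bud tip (8), the loop of Henle and distal tubule (9) and the proximal tubule (8). It also held for podocytes (6), endothelium (8), leukocytes (8) and erythroid cells (5). In MUT pools all 11 principal and all 10 intercalated cell markers fell, by a median log2 difference of -2.04 and -2.42, while 8 of 10 stromal and 6 of 9 nephron progenitor markers rose. In sorted bulk RNA, fewer cells of a type and less RNA per cell cannot be told apart.

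The primary cilium is a microtubule-based antenna on the apical face of kidney tubule cells. It is built and maintained by intraflagellar transport (IFT), in which motors carry the IFT-B and IFT-A complexes and their cargo along the axoneme, while the BBSome, a coat of BBS proteins, moves membrane receptors in and out of it. A gate at its base, the transition zone, holds many nephronophthisis proteins. The polycystins and fibrocystin lie in the ciliary membrane, and loss of genes from any of these modules can give cystic kidneys in mice and people.

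Setting MUT against WT pools asks how these genes differ when the B2 receptor is deleted in the collecting duct lineage under salt stress. Most did not pass the test, and those that did were the chaperonin gene Bbs12, the BBSome gene Bbs7, Invs and Pkd1, which rose by 1.31-fold to 1.61-fold, and Cys1, Bicc1 and Glis2, which fell by 1.63-fold to 2.06-fold. Thus 4 of 37 genes (10.8%) rose, against 14.0% of all tested genes, and 3 of 37 (8.11%) fell, against 18.8% of all tested genes. A gene was called at an adjusted p under 0.05 in limma, over all tested probes. Every MUT pool lay above every WT pool for 14 of the 37, where this held for 24.2% of all tested genes, and below for 5, where it held for 28.3% of all tested genes. The median log2 difference, MUT minus WT, was 0.14 over the 37 genes and -0.02 over all tested genes. Just 1 gene of the 37 (2.70%) differed by at least 1 log2 unit, against 8.80% of all tested genes. For 30 of the 37 (81.1%) the 95% interval of the difference lay within 1 log2 unit of 0, against 79.5% of all tested genes.

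**Figure D1:**
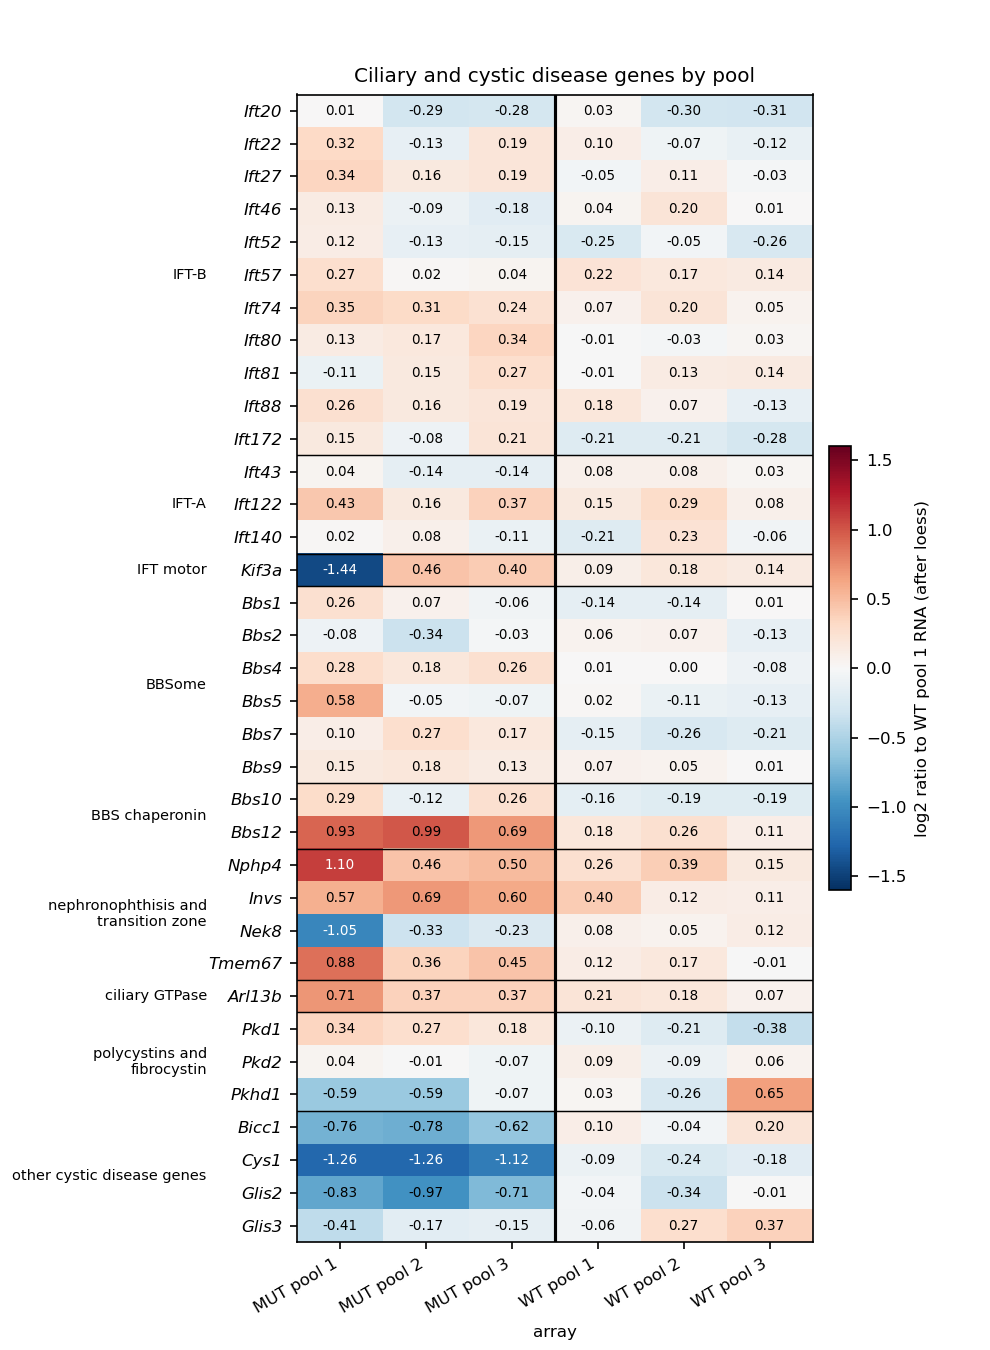
Log2 ratio to the RNA of WT pool 1 (colour scale) for 35 of the 37 genes (rows, grouped by role) in MUT pools 1 to 3 and WT pools 1 to 3 (columns), with the value in each cell; it shows levels relative to 1 RNA and not calls. The IFT rows are pale in all pools, Cys1 lies between -1.26 and -1.12 in the MUT pools, and MUT pool 1 stands apart for Kif3a (-1.44).

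**Figure D2:**
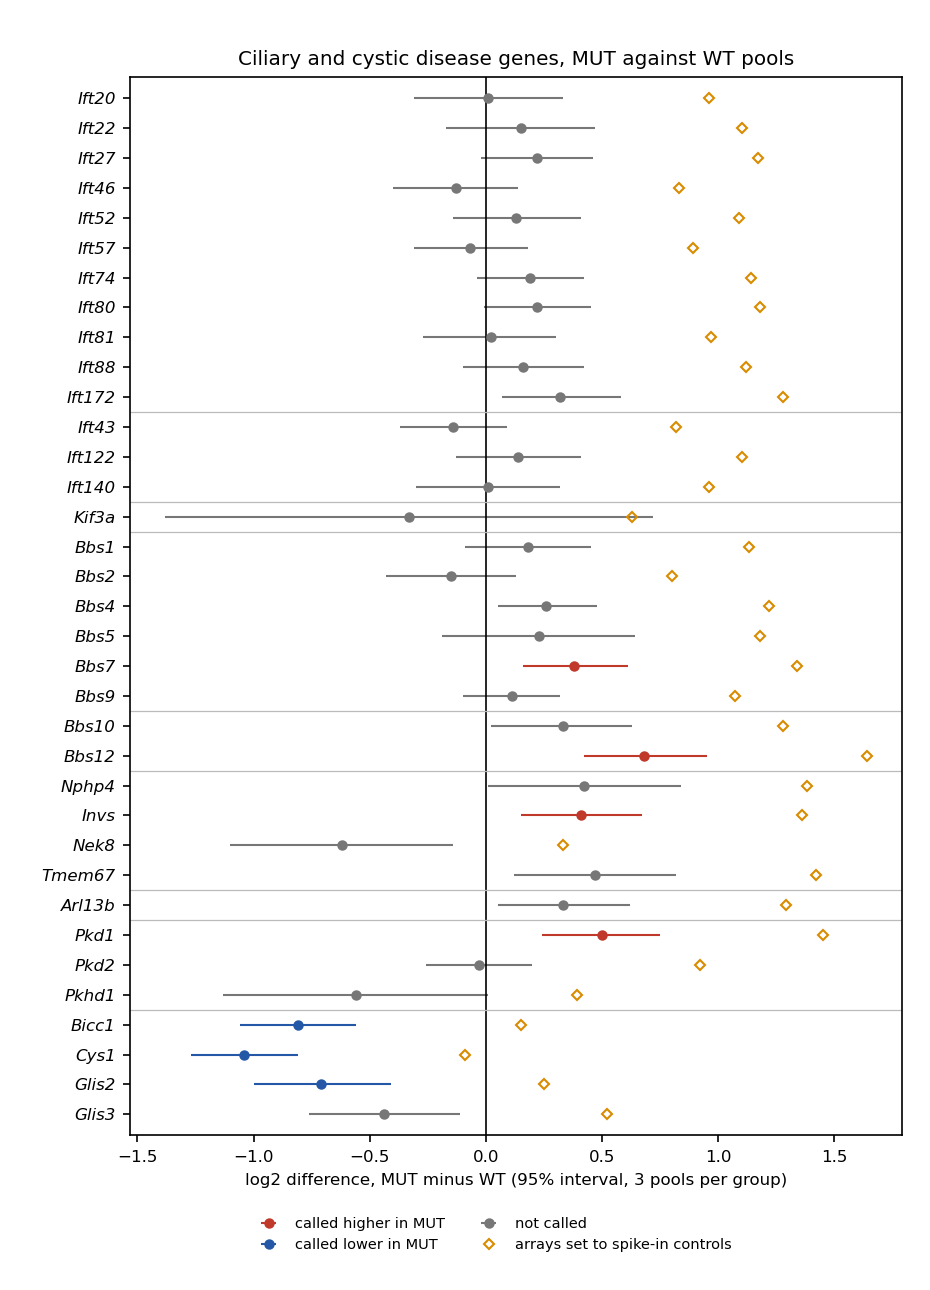
Log2 difference, MUT minus WT, of 35 of the 37 genes (points) with 95% intervals (bars), grouped by role, from limma on 3 pools per group (red called higher in MUT, blue called lower, grey not called), and the value scaled by spike-in controls (open diamonds). The IFT-A and IFT-B intervals lie between -0.40 and 0.58, and Cys1 is lowest at -1.04; the spike-in values lie to the right of the others.

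RefSeq promoter windows (assembly GRCm38.p6) were at hand for 29 of the 37 genes, as 31 windows, and the 250 bases before the transcription start were searched on both strands for GTTGCC and GTTACC, arms of the X-box that RFX factors bind in ciliary genes. GTTGCC was in 6 of 31 windows (19.4%), those of Arl13b, Bbs7, Ift140, Ift27, Ift57 and Kif3a, against 10.4% of all 32851 windows. GTTACC was in 3 windows (9.68%), those of Arl13b, Ift57 and Nphp4, against 6.06% of all windows. Such a match is a description of the letters and not a binding site. Printed 5′ to 3′ on the gene's own strand, with either motif in capitals, are the windows of Bbs12 (chr3:37312304-37312553, plus strand), the largest rise, of Cys1 (chr12:24681796-24682045, minus strand), the largest fall, and of Bbs7 (chr3:36613390-36613639, minus strand), the 1 gene with a match among the 5 of 7 called genes that have a window.
Bbs12: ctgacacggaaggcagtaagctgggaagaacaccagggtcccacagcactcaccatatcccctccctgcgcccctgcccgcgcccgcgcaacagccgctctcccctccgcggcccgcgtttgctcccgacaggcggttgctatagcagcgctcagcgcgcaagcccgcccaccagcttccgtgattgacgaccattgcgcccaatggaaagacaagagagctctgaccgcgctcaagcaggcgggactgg
Cys1: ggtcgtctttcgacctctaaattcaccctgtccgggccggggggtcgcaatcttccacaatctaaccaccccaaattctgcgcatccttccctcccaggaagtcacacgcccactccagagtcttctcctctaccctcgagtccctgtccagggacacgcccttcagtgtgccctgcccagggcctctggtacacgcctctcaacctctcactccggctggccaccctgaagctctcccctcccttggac
Bbs7: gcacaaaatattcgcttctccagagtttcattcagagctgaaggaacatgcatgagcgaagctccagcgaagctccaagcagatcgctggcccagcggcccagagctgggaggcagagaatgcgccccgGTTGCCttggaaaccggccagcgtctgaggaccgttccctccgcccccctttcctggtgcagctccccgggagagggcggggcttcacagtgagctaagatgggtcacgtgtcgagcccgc
The Bbs12 and Cys1 windows hold neither motif, and Bbs7 holds GTTGCC once. The G and C content was 66.0% for Bbs12, 61.2% for Cys1 and 62.0% for Bbs7.

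Of all tested genes 14.0% were called higher and 18.8% lower. None of the 11 Ift genes of the IFT-B complex, the anterograde train, passed the test. Their log2 differences ran from -0.13 for Ift46 to 0.32 for Ift172, with a median of 0.15, and all 11 intervals lay within -0.40 and 0.58. Ift172, a peripheral subunit at which trains turn round at the ciliary tip, had the largest difference (0.32 ± 0.11 SE, adjusted p = 0.0667). Its log2 ratios to WT pool 1 RNA were 0.15, -0.08 and 0.21 in MUT pools 1, 2 and 3, against -0.21, -0.21 and -0.28 in WT pools 1, 2 and 3, and the groups did not overlap. They did not overlap either for Ift27, a small GTPase of the complex (0.22 ± 0.10 SE, adjusted p = 0.158), for Ift74, part of the tubulin-binding module (0.19 ± 0.10 SE, adjusted p = 0.191), or for Ift80 (0.22 ± 0.10 SE, adjusted p = 0.144). The other 7 overlapped between groups. Over all tested genes 24.2% had every MUT pool above every WT pool. Ift88, a core subunit whose hypomorphic allele gives polycystic kidneys in mice, had ratios of 0.26, 0.16 and 0.19 in the MUT pools, against 0.18, 0.07 and -0.13 in the WT pools (0.16 ± 0.11 SE, adjusted p = 0.32). Ift20, which also works at the Golgi, differed by 0.01 ± 0.14 SE, Ift81, which binds tubulin with Ift74, by 0.02 ± 0.12 SE, and the GTPase Ift22 by 0.15 ± 0.14 SE. The remaining subunits Ift52 (0.13 ± 0.12 SE), Ift57 (-0.07 ± 0.11 SE) and Ift46 (-0.13 ± 0.12 SE) lay on both sides of 0, and the other probe of Ift46 gave 0.11 ± 0.10 SE.

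The IFT-A complex, which serves retrograde transport and entry of membrane proteins, also had 0 of 3 members called. Ift122 differed by 0.14 ± 0.12 SE, Ift140 by 0.01 ± 0.13 SE and Ift43 by -0.14 ± 0.10 SE, and the MUT and WT pools overlapped for all 3. The other probe of Ift122 gave 0.01 ± 0.17 SE. Their intervals lay within -0.37 and 0.41. The Ift140 probe was well above background on 2 of the 3 WT arrays.

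Kif3a, the motor subunit of kinesin-2 that drives anterograde IFT and whose loss in tubules gives cysts in mice, had probes that disagreed. Its brightest probe had log2 ratios of -1.44, 0.46 and 0.40 in MUT pools 1, 2 and 3, against 0.09, 0.18 and 0.14 in the WT pools, and its difference was -0.33 ± 0.45 SE (adjusted p = 0.632). Its other probe had 0.49, 0.24 and 0.48 in the MUT pools, against 0.06, 0.03 and -0.06 in the WT pools, and was called higher (0.39 ± 0.11 SE, adjusted p = 0.032). MUT pool 1 was thus the lowest sample for 1 probe and the highest for the other. Without MUT pool 1 the brightest probe differed by 0.30 (adjusted p = 0.0461). Arl13b, a ciliary membrane GTPase, had the same pattern. Its brightest probe was higher in every MUT pool, at 0.71, 0.37 and 0.37, against 0.21, 0.18 and 0.07 in the WT pools (0.33 ± 0.12 SE, adjusted p = 0.085), while its other probe was at -1.45 in MUT pool 1 and differed by -0.44 ± 0.41 SE (adjusted p = 0.464). Of the 49 probes, 3 (6.12%) lay at least 1 log2 unit below both other MUT pools in MUT pool 1, among them those of Kif3a and Arl13b, against 3.24% of all tested probes.

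**Figure D3:**
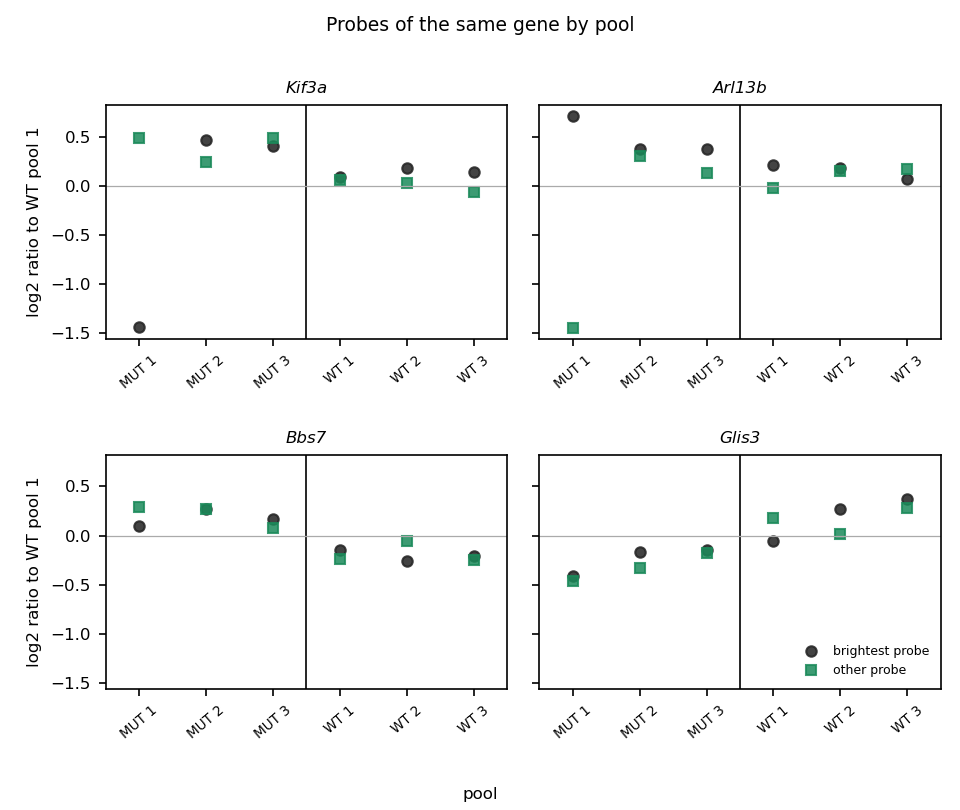
Log2 ratio to the RNA of WT pool 1 (vertical axis) by pool, MUT left and WT right, for the tested probes of Kif3a, Arl13b, Bbs7 and Glis3; circles are the brightest probe and squares the other probe. MUT pool 1 is at -1.44 for 1 Kif3a probe and -1.45 for 1 Arl13b probe, whereas the probes of Bbs7 and Glis3 run together.

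Among the 6 BBSome subunits 1 rose and 0 fell, against 14.0% and 18.8% of all tested genes. Bbs7, a beta-propeller subunit, had log2 ratios of 0.10, 0.27 and 0.17 in the MUT pools, against -0.15, -0.26 and -0.21 in the WT pools, so that the groups did not overlap. It was 1.31-fold higher (0.38 ± 0.10 SE, adjusted p = 0.0236), and its other probe gave 0.40 ± 0.11 SE (adjusted p = 0.0331). The groups were also apart for Bbs4, which links the coat to its cargo path (0.28, 0.18 and 0.26 in the MUT pools, against 0.01, 0.00 and -0.08 in the WT pools), but its difference of 0.26 ± 0.09 SE did not pass the test (adjusted p = 0.0752). Bbs9, another beta-propeller subunit, was at 0.13 to 0.18 in the MUT pools, against 0.01 to 0.07 in the WT pools (0.11 ± 0.09 SE, adjusted p = 0.399). Bbs1, which is contacted by the GTPase that recruits the coat (0.18 ± 0.12 SE), Bbs5, which binds membrane lipids (0.23 ± 0.18 SE), and Bbs2 (-0.15 ± 0.12 SE) overlapped between groups. Other probes gave -0.09 ± 0.11 SE for Bbs1 and 0.05 ± 0.21 SE for Bbs5, also with overlap.

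The chaperonin-like proteins that assemble the BBSome include the largest rise of the 37 genes. Bbs12 had log2 ratios of 0.93, 0.99 and 0.69 in the MUT pools, against 0.18, 0.26 and 0.11 in the WT pools. The groups did not overlap, and it was 1.61-fold higher (0.68 ± 0.11 SE, adjusted p = 0.00431). Bbs10, its partner, had 0.29, -0.12 and 0.26 in the MUT pools, against -0.16, -0.19 and -0.19 in the WT pools. These groups did not overlap, although MUT pool 2 came close to the WT pools, and the difference of 0.33 ± 0.13 SE did not pass the test (adjusted p = 0.105). The other probe of Bbs10 overlapped between groups and differed by -0.06 ± 0.12 SE (adjusted p = 0.75).

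Of the 6 genes grouped here as nephronophthisis and transition zone genes 1 rose, Invs, and 0 fell, against 14.0% and 18.8% of all tested genes. Glis2, also a nephronophthisis gene, was grouped with the other cystic disease genes and fell. Invs encodes inversin, which marks a proximal ciliary segment and anchors the kinase Nek8 there. Its log2 ratios were 0.57, 0.69 and 0.60 in the MUT pools, against 0.40, 0.12 and 0.11 in the WT pools, where WT pool 1 was nearest the MUT pools. It was 1.33-fold higher (0.41 ± 0.11 SE, adjusted p = 0.0328). Nek8 did not pass the test. This kinase, mutated in a cystic mouse strain, had -1.05, -0.33 and -0.23 in the MUT pools, against 0.08, 0.05 and 0.12 in the WT pools, with no overlap (-0.62 ± 0.21 SE, adjusted p = 0.0607). Leaving out MUT pool 1, its lowest sample, brought the Nek8 difference to -0.36 and its adjusted p to 0.0203, and leaving out MUT pool 3 brought them to -0.77 and 0.04.

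Nphp4, a transition zone protein, lay above WT in every MUT pool, at 1.10, 0.46 and 0.50, against 0.26, 0.39 and 0.15 in the WT pools (0.42 ± 0.18 SE, adjusted p = 0.121). Its other probe overlapped between groups, at 0.95, 0.07 and 0.26 in the MUT pools, against 0.09, 0.16 and 0.18 in the WT pools (0.29 ± 0.21 SE, adjusted p = 0.353). Tmem67, or meckelin, a transition zone membrane protein, was at 0.88, 0.36 and 0.45 in the MUT pools, against 0.12, 0.17 and -0.01 in the WT pools (0.47 ± 0.15 SE, adjusted p = 0.0552). For Nphp4 and Tmem67, MUT pool 1 was the highest sample, and for Nek8 it was the lowest.

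The genes of dominant and recessive polycystic kidney disease differed in their calls, with 1 of 3 rising, against 14.0% of all tested genes. Pkd1, whose product polycystin-1 is the receptor-like partner of the polycystin complex, had log2 ratios of 0.34, 0.27 and 0.18 in the MUT pools, against -0.10, -0.21 and -0.38 in the WT pools. It was 1.41-fold higher with no overlap (0.50 ± 0.11 SE, adjusted p = 0.0142). Pkd2, the channel subunit that pairs with polycystin-1, was at 0.04, -0.01 and -0.07 in the MUT pools, against 0.09, -0.09 and 0.06 in the WT pools. Its difference of -0.03 ± 0.10 SE had a 95% interval of -0.26 to 0.20 (adjusted p = 0.85). Pkhd1, which encodes fibrocystin, was at -0.59, -0.59 and -0.07 in the MUT pools, against 0.03, -0.26 and 0.65 in the WT pools. The WT pools spread widely and overlapped the MUT pools, and the difference was -0.56 ± 0.25 SE (adjusted p = 0.132). Whether Pkd1 and Pkd2 differ in their response was not tested.

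The other 4 cystic disease genes all lay below WT in every MUT pool, and 3 of the 4 fell. Over all tested genes these shares were 28.3% and 18.8%. The group is small, and Glis2 could also be counted with the nephronophthisis genes. Cys1, which encodes cystin, a lipid-anchored ciliary membrane protein lost in the cpk mouse, had log2 ratios of -1.26, -1.26 and -1.12 in the MUT pools, against -0.09, -0.24 and -0.18 in the WT pools. It was 2.06-fold lower (-1.04 ± 0.10 SE, adjusted p = 0.000532). Bicc1, an RNA-binding protein mutated in cystic mice, had -0.76, -0.78 and -0.62 in the MUT pools, against 0.10, -0.04 and 0.20 in the WT pools. It was 1.75-fold lower (-0.81 ± 0.11 SE, adjusted p = 0.00173). Glis2, a zinc finger transcription factor whose loss gives nephronophthisis, had -0.83, -0.97 and -0.71 in the MUT pools, against -0.04, -0.34 and -0.01 in the WT pools. It was 1.63-fold lower (-0.71 ± 0.13 SE, adjusted p = 0.0062). The groups did not overlap for any of these genes. Glis3, a related factor whose loss gives cystic kidneys and neonatal diabetes, had -0.41, -0.17 and -0.15 in the MUT pools, against -0.06, 0.27 and 0.37 in the WT pools. Its brightest probe missed the threshold (-0.44 ± 0.14 SE, adjusted p = 0.0571), and its other probe passed it (-0.48 ± 0.12 SE, adjusted p = 0.0211). Both Glis3 probes were well above background on 2 of 3 MUT arrays. The Glis3 difference at the brightest probe was -1.17 with processed signals, -1.31 in the deposited value table and -0.18 with slide row as a block, none of them called.

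These falls stood beside larger falls of the collecting duct markers given above, and their part in the result was not tested. MUT pools 1, 2 and 3 had median log2 ratios of -2.21, -2.01 and -1.84 over the principal cell markers, against -0.08, -0.19 and 0.00 in WT pools 1, 2 and 3. Over the intercalated cell markers the medians were -2.36, -2.64 and -2.24 in the MUT pools, against 0.12, -0.40 and 0.28 in the WT pools. The renal stroma markers had medians of 1.61, 1.39 and 1.30 in the MUT pools, against 0.12, -0.90 and -1.15 in the WT pools. Markers of the ureteric bud tip, the other Hoxb7-lineage compartment, had 1 of 8 genes lower and 0 higher, with a median log2 difference of -0.20. All 9 loop of Henle and distal tubule markers fell, by a median of -2.60, and 4 of 8 proximal tubule markers fell, by a median of -0.73 over the 8. Scaled by the spike-in controls, the median differences were -1.09 for principal cells, -1.47 for intercalated cells, -1.65 for the loop and distal tubule and 3.13 for the stroma, and they turned positive for the ureteric tip (0.76) and the proximal tubule (0.22).

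Slide row 1 held all 3 MUT pools with WT pool 1, and row 2 held WT pools 2 and 3. With row as a block, MUT is set against WT pool 1 alone, the pool that was hybridised against its own RNA, and row 2 gives no within-row value. Cys1 (-1.12 ± 0.15 SE) and Bicc1 (-0.82 ± 0.17 SE) were called in that fit. Differences were close to those above, with larger errors and no call, for Bbs12 (0.69 ± 0.18 SE, adjusted p = 0.0683), Glis2 (-0.80 ± 0.19 SE, adjusted p = 0.0577) and Bbs7 (0.33 ± 0.15 SE, adjusted p = 0.245). They were smaller, with no call, for Pkd1 (0.37 ± 0.16 SE, adjusted p = 0.22) and Invs (0.22 ± 0.14 SE, adjusted p = 0.409). Without WT pool 3, Bbs12 remained the 1 called riser and Pkd1 had an adjusted p of 0.0682, while Bbs7 lost its call without any single pool except MUT pool 1, and Invs without any except MUT pool 1 or WT pool 1. The scale is set by loess, which takes the typical probe as unchanged. When the spike-in controls set the scale after loess, the median of all tested genes was 0.94 higher in MUT, 27 of the 37 genes were called higher and 0 lower, against 61.4% and 1.14% of all tested genes, and Bicc1 (0.15), Glis2 (0.25) and Cys1 (-0.09) were not called. The spike-in scale rests on 10 control probes, whose mean log2 ratios after loess were -0.78, -0.64 and -0.26 in MUT pools 1, 2 and 3. In WT pools 1, 2 and 3 the means were -0.07, 0.31 and 0.94, so they also spread widely within WT. This scale adds nearly the same amount to every gene, so it leaves their order as it was.

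The wider ciliary pathway was read from 13 lists, whose 128 tested genes outside the 37 included 31 called higher (24.2%, against 14.0% of all tested genes) and 13 called lower (10.2%, against 18.8% of all tested genes), with a median of 0.08. With probes well above background on all 6 arrays the counts were 27 and 13. They were 96 and 1 on the spike-in scale after loess (61.4% and 1.14% of all tested genes), 7 and 5 with slide row as a block (3.43% and 7.45% of all tested genes), 14 and 8 without WT pool 3 (6.83% and 11.2%) and 19 and 8 without WT pool 1 (9.75% and 12.8%). With all listed subunits, 1 of 18 IFT-B genes rose, Ttc30a1 (0.36 ± 0.11 SE, adjusted p = 0.0409), and 0 of 5 tested IFT-A genes changed. Among 12 IFT motor genes 2 rose and 2 fell. The risers were subunits of the retrograde motor dynein-2, Wdr60 (0.79 ± 0.12 SE, adjusted p = 0.00299) and its heavy chain Dync2h1 (0.48 ± 0.11 SE, adjusted p = 0.0157). The fallers were Kif3b, the motor partner of Kif3a (-0.57 ± 0.16 SE, adjusted p = 0.0374), and the dynein-2 light chain Tctex1d2 (-0.56 ± 0.11 SE, adjusted p = 0.00737). Called dynein-2 subunits thus went both ways.

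Of 15 BBSome and chaperonin genes 3 rose and 0 fell, the third being Trim32, a ubiquitin ligase (0.52 ± 0.11 SE, adjusted p = 0.0102). In the nephronophthisis list 4 of 15 genes rose and 2 fell. Besides Invs, the zinc finger gene Zfp423 (1.10 ± 0.12 SE, adjusted p = 0.000718), Iqcb1 (0.63 ± 0.14 SE, adjusted p = 0.012) and the centriole gene Cep83 (0.50 ± 0.11 SE, adjusted p = 0.0147) rose. Besides Glis2, Dcdc2a fell (-0.94 ± 0.16 SE, adjusted p = 0.00486). Of 19 transition zone genes 4 rose, among them Rpgr, Mks1 and Tmem237, and B9d1 fell (-0.41 ± 0.11 SE, adjusted p = 0.0347). Of 14 centriole and ciliogenesis genes 5 rose and 0 fell, among them Ttbk2, the kinase that starts ciliogenesis (0.94 ± 0.15 SE, adjusted p = 0.00404), Ninl and Ccp110, which caps the mother centriole. Of 14 membrane traffic genes 1 rose, Kif7, the ciliary tip kinesin of hedgehog signalling (0.64 ± 0.11 SE, adjusted p = 0.00464), and 1 fell, Cys1. Among 7 genes of ciliary receptors and polycystin cargo 3 rose and 1 fell. Besides Pkd1, Adcy3 and Sstr3, both found in cilia of other tissues, were called higher but stood out from background on 0 of 3 WT arrays, and Adcy6, a cyclase of the collecting duct, fell (-0.64 ± 0.11 SE, adjusted p = 0.00481).

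The hedgehog pathway, which in mammals runs through the cilium, had the highest share of risers of the 13 lists, 11 of 16 tested genes, with 2 falling and a median of 0.62 (1.58 on the spike-in scale). The co-receptors Gas1 (1.46 ± 0.14 SE, adjusted p = 0.000506) and Boc (1.42 ± 0.13 SE, adjusted p = 0.000506) and the transcription factor Gli3 (1.20 ± 0.12 SE, adjusted p = 0.000546) rose, while the ligands Dhh (-1.32 ± 0.11 SE, adjusted p = 0.000402) and Ihh (-0.51 ± 0.15 SE, adjusted p = 0.0399) fell. Of the renal stroma markers 8 of 10 rose in the same pools. Of 8 leukocyte markers (median 0.92) 6 rose and 1 fell, Ptprc (-0.43 ± 0.11 SE, adjusted p = 0.021). In contrast, 7 of 8 endothelial markers (median -1.0) and all 5 erythroid markers (median -2.45) fell. The part of all these cell types in the hedgehog changes was not tested.

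Of 19 genes of polycystin biogenesis and other cystic diseases 1 rose and 6 fell. The riser was Alg8, a glycosyltransferase of the endoplasmic reticulum mutated in polycystic liver disease (0.59 ± 0.10 SE, adjusted p = 0.00426). Among the fallers were Umod, the thick limb protein uromodulin (-2.96 ± 0.31 SE, adjusted p = 0.000677), Muc1, an apical mucin (-1.14 ± 0.18 SE, adjusted p = 0.00364), and the chaperone Dnajb11 (-0.40 ± 0.11 SE, adjusted p = 0.0346). Umod is also a marker of the loop of Henle list. Of 9 transcription regulators of ciliary and cystic genes 0 rose and 1 fell. Among 11 tested genes of motile cilia, which collecting ducts do not carry, Tekt1 rose (1.35 ± 0.17 SE, adjusted p = 0.00137) and Dnah11 (-1.10 ± 0.10 SE, adjusted p = 0.000506) and Rsph9 (-0.58 ± 0.11 SE, adjusted p = 0.00672) fell.

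**Figure D4:**
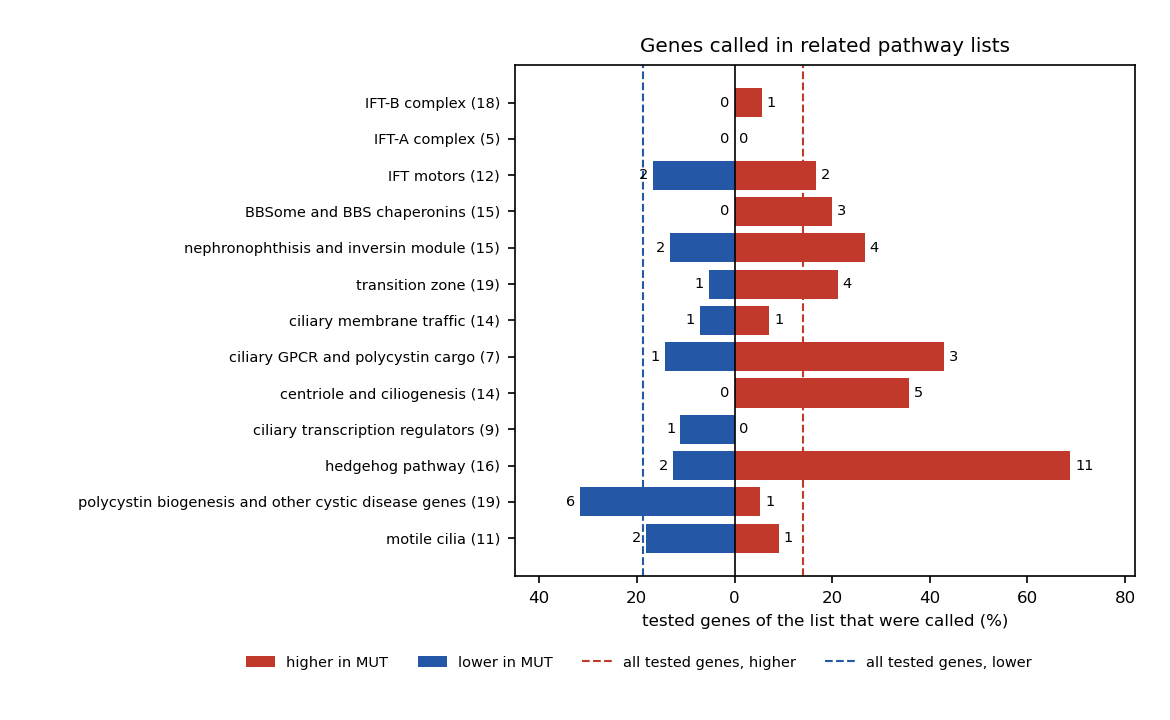
Share of the tested genes of each of 13 pathway lists (rows, number of tested genes in brackets) called higher in MUT (right) or lower in MUT (left) in percent, with counts at the bars; dashed lines are the shares over all tested genes, 14.0% higher and 18.8% lower. The hedgehog list has 11 genes higher, and the IFT-B and IFT-A lists have 1 and 0.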

How the data were processed

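RNA of 3 MUT and 3 WT pools (0.5 µg total RNA per labelling, per the labels) was read on 6 two-colour Agilent arrays of 1 slide, per the file headers, with no dye swap. A dye effect of a probe enters both groups alike. The submitters' processing notes name Agilent Feature Extraction 10.7.3.1. In the deposited scanner files each spot has an intensity (median signal and local background) per channel and the software's log10 ratio, Cy5 over Cy3. The deposited value table repeats that log10 ratio, within 0.00499, with a median of 0 on each array and 20.4% to 27.7% of values at exactly 0. It was used as an alternative.

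Median intensities were corrected by normexp (offset 50), and log2 ratios were normalized within arrays by loess (weight 0 for control spots). Control and outlier spots were left out, and 0 spots were saturated. Probes had to be well above background in Cy5 on each of a group's 3 arrays, in either group, and were tested with limma 3.58.1 in R 4.3.3 (lmFit and eBayes, no covariate, Benjamini-Hochberg over 29003 probes). Folds are on this offset scale, which can understate them, but not for every gene. With an offset of 16 the log2 difference was larger for Bbs12 (0.73, against 0.68) and Glis3 (-0.63, against -0.44). It was slightly smaller for Bicc1 (-0.77, against -0.81) and Glis2 (-0.68, against -0.71). Probes were named by RefSeq accession through a GRCm38.p6 table, which named 27509 probes. The headers give another build, so coordinates are printed only for the promoter windows of that assembly. A gene is given by its brightest tested probe. Folds were left out for probes with no array well above background in a group. The labels call the pools biological replicates, and their number limits the precision. Pool numbers were not used to pair the samples: deviations of same-numbered MUT and WT pools correlated at 0.14, 0.07 and 0.20, and not all were above the threshold of 0.1. Each pool still correlated best with its own number in the other group, and a block by pool number was an alternative.

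The members and gene lists were chosen with earlier results of these data known. The text names the members and, for each list and direction, up to 3 called genes with the smallest p. Some genes that this rule takes, 2 of the 37 members among them, are not reported here, although counts include them. Scripts were tested on simulated data. Alternatives covered background, normalization, spike-in scaling, the filter, Cy5 alone, blocks, moderation, probe choice and each pool left out. Figures used matplotlib 3.10.9.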

Additional observations from a re-analysis of the deposited data

How the results depend on the processing

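Of the 21 alternatives, Bbs12 was called in 20, Cys1 and Pkd1 in 19 each, Bicc1 in 18, Glis2 in 16, Invs in 14 and Bbs7 in 13. These include the spike-in scale after loess and without it, where 61.4% and 57.5% of all tested genes were called higher. Bbs12, Bbs7, Invs and Pkd1 were called in both of these, and Cys1, Bicc1 and Glis2 in neither. The counts thus do not rank risers against fallers, and Cys1 was called in every other alternative. Cys1, Bicc1 and Glis2 were called with each pool left out. With any pool left out 1 to 5 of the 37 genes were called higher and 3 to 4 lower. Of all tested genes 6.83% to 16.1% were then called higher and 11.2% to 22.7% lower. The number of probes called, 7584 in all, was 3831 to 9536 with a pool left out, the lowest without WT pool 3, and 4890 without WT pool 1. With a pool left out Kif3a ranged between -0.65 and 0.30, and its sign turned without MUT pool 1. With slide row as a block, 2194 probes were called, and 0 of the 37 genes were higher and 2 lower. Median centring without loess gave 7 higher and 1 lower (18.2% and 6.33% of all tested genes). Array weights gave 7 and 5 (17.9% and 24.5%), and the mean of a gene's probes 6 and 5 (15.5% and 20.4%).

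Scaled by the spike-in controls, 18936 probes were called after loess and 16644 without it, with 27 of the 37 genes higher and 0 lower in each. Of all tested genes 61.4% and 57.5% were called higher and 1.14% and 1.43% lower, in the same order. Of the genes called above, the signs turned for Bicc1 (0.15 after loess and 0.23 without) and Glis2 (0.25 and 0.28). They also turned for Ift46 (0.83 and 0.83), Ift57 (0.89 and 0.86) and Pkd2 (0.92 and 0.91), called on this scale only. Ift43 turned in both (0.82 and 0.79) and was called without loess. With no call above or on this scale, signs turned for Bbs2 (0.80 and 0.74), Glis3 (0.52 and 0.26) and Kif3a (0.63 and 0.59). The same held for Nek8 (0.33 and 0.29) and Pkhd1 (0.39 and 0.35). The median of all genes was 0.94 after loess and 0.88 without it on this scale, 0.25 with median centring and 0.15 with processed signals. Of the calls 44.2% were higher in MUT, and 98.9%, 98.4%, 77.2% and 64.0% under these 4 settings in the same order, and 31.5% with the slide row. These 4 settings each take another level as 0. The slide row fit kept the loess scale, with a median of all genes of -0.03, against -0.02 in the main fit. It set MUT against WT pool 1 alone.

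The replicate block by pool number gave 2 of the 37 genes higher (Bbs12 and Pkd1) and 5 lower (Bicc1, Cys1, Glis2, Glis3 and Pkhd1), and 7247 probes. Of all tested genes 13.5% were called higher and 17.9% lower in that fit. Each pool's deviations correlated best with those of its own number in the other group, which is a hint from the data and not from the design. On the probes well above background on all 6 arrays, Glis3 and Ift140 were left out and have no value. The cause of the other changes was not tested, and 3 pools per group and signal over background limit what can be called.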
